A study of Homo sapiens with 14 samples.

Results

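BIX-01294 is a small-molecule inhibitor of EHMT2 (also called G9a) and EHMT1 (also called GLP). The comparison described here set the U2OS cells given BIX-01294 at 5 μM for 12 h beside the U2OS cells given the solvent DMSO at 0.5% by volume, whose treatment time the labels do not give. It rested on 2 of the 14 libraries of the series, 1 library in each group. The genes were taken by level: 12804 of the 28502 rows of the expression table had a mean of at least 1 FPKM (fragments per kilobase of transcript and of library size) over its 10 libraries. U2OS is an established human osteosarcoma line, and the study measured messenger RNA after treatment with 9 compounds, most of them directed at histone-modifying or histone-binding proteins. The 8 other compounds in the same table were 2PCPA, GSK343, BRD4770, GSK-J4, Rapamycin, SAHA, UNC1215 and VPA, each with 1 library there, and they served to rank the BIX-01294 value of each gene. The series title concerns H3K4 demethylation and autophagy, so autophagy genes were among the lists described. With 1 library in each group, every difference below is a description of these libraries, without a replicate check, a p-value or an error.

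EHMT1 and EHMT2 form a complex that places mono- and dimethyl marks on lysine 9 of histone H3, a modification found at repressed genes, and the complex is held at chromatin with the help of the zinc finger proteins WIZ and ZNF644. Jumonji-domain demethylases such as the KDM3 and KDM4 families remove H3K9 methylation. Autophagy, the delivery of cytoplasmic material to lysosomes, starts with the ULK1 complex, proceeds through the attachment of LC3 and GABARAP proteins to lipid, and draws in cargo through receptors such as SQSTM1.

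Fold values and differences were taken on the log2(FPKM + 1) scale, which understates changes of weakly expressed genes, and a difference of 1 is called 2-fold. On this scale 1276 genes were at least 2-fold higher with BIX-01294 than with DMSO (9.97% of the genes) and 773 were at least 2-fold lower (6.04%). Centring each library on its own median gave 943 higher and 1147 lower, and scaling each library to one common sum (TPM) gave 1114 higher and 1404 lower, so which direction held more genes depended on the scaling. Centring moved the median of all genes to -0.10 and the TPM scaling moved it to -0.08, from 0.06 as reported. Quantile normalization, the third scaling tried, moved it to -0.04. Where list medians below are followed by a range under other scalings, these 3 are meant. The BIX-01294 value was the highest of the 10 libraries for 3394 genes (26.5%) and the lowest for 1696 genes (13.2%). Both at least 2-fold above DMSO and highest were 1011 genes (7.9%), and both at least 2-fold below and lowest were 557 genes (4.35%). These shares over all genes are the background for the list counts below. In the BIX-01294 library 316 genes stood at least 2-fold above each of the other 9 libraries (2.47%), more than in any other library of the table, where SAHA had 159, GSK-J4 101 and the remaining ones 6 to 38. At least 2-fold below each of the other 9 were 81 genes (0.633%), against 1 to 40 genes in the other libraries. The 2PCPA library stood apart, with 28.5% of olfactory receptor genes above 0 where BIX-01294 had 2.80% and DMSO 4.83%; ranked without it, 1014 genes were higher and highest and 593 lower and lowest.

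**Figure D1:**
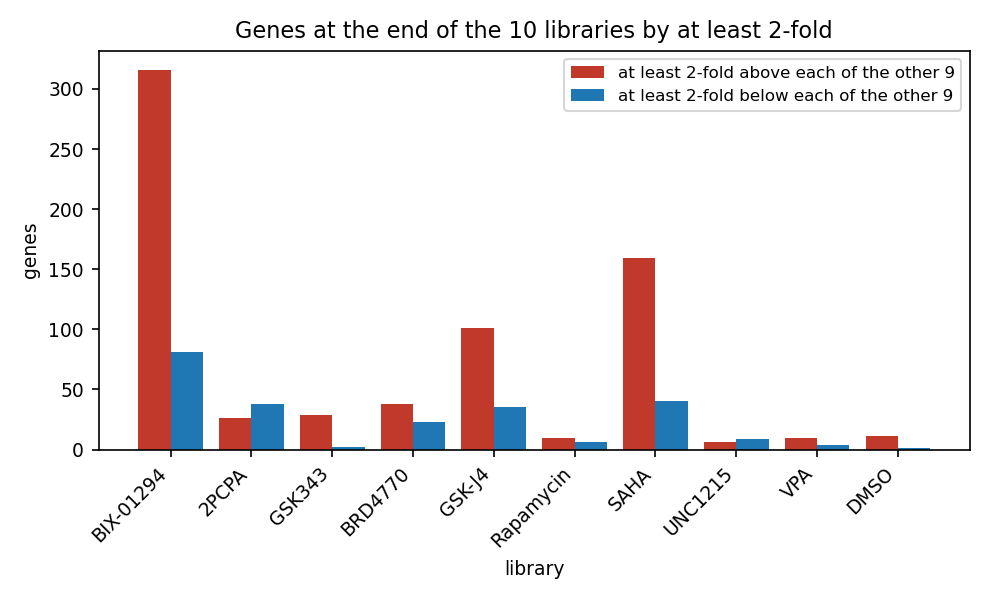
Number of genes (y axis) whose level in a library was at least 2-fold above (red) or at least 2-fold below (blue) each of the other 9 libraries, for each of the 10 libraries of the table (x axis). BIX-01294 has 316 genes above and 81 below, and the next library is SAHA with 159 above.

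Several properties of the BIX-01294 library are set beside these counts, and their part in them was not tested. The most frequent ratio of DMSO to BIX-01294 values, among genes above 0 and below 1 FPKM in both, was read as relative depth. It put the depth of the BIX-01294 library at 0.554 of that of DMSO, the lowest of the 10. The other compounds lay between 0.654 (GSK-J4) and 1.23 (SAHA). This is a rough estimate, since 12 of the 1605 such genes shared the most frequent ratio for BIX-01294. Among the genes kept, 323 were listed at 0 with BIX-01294 and 190 with DMSO. Of the 773 genes that were lower, 141 were listed at 0 with BIX-01294, and 587 were named genes above 0 in both libraries. Of the 1276 genes that were higher, 1126 were named genes above 0 in both. The share of lower genes was larger at low levels, with 9.67% at a mean of 1 to 2 FPKM and 0.948% at 100 FPKM or more, whereas the share of higher genes was 10.4% and 5.06%. In the marker check for U2OS, 6 of 8 mesenchymal markers had at least 1 FPKM in both libraries, led by VIM at 656 FPKM with BIX-01294 and 739 FPKM with DMSO. RUNX2, the bone-lineage factor of that list, stood at 1.28 FPKM with BIX-01294 and 5.27 FPKM with DMSO, a difference of -1.46. The other 8 compounds had 0.629 to 3.22 FPKM, so DMSO was above every compound and BIX-01294 lay within the range of the others. Among the mesenchymal markers COL1A2 was at 0 with BIX-01294 and 0.0515 FPKM with DMSO, and TWIST1 was at 0 in both. None of 5 osteoblast, 6 blood and 4 endothelial markers reached 1 FPKM in either library, and 1 of 4 neural markers did so with DMSO. The epithelial list had 4 of 7 markers at 1 FPKM or more, nearly all of it KRT8 and KRT18, and its summed level was 1165 FPKM with BIX-01294 against 790.2 FPKM with DMSO and 466 to 945 FPKM in the other 8. KRT19 was at 0 in both libraries and CDH1 stood at 0.649 FPKM with BIX-01294 and 0.3004 FPKM with DMSO.

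**Figure D2:**
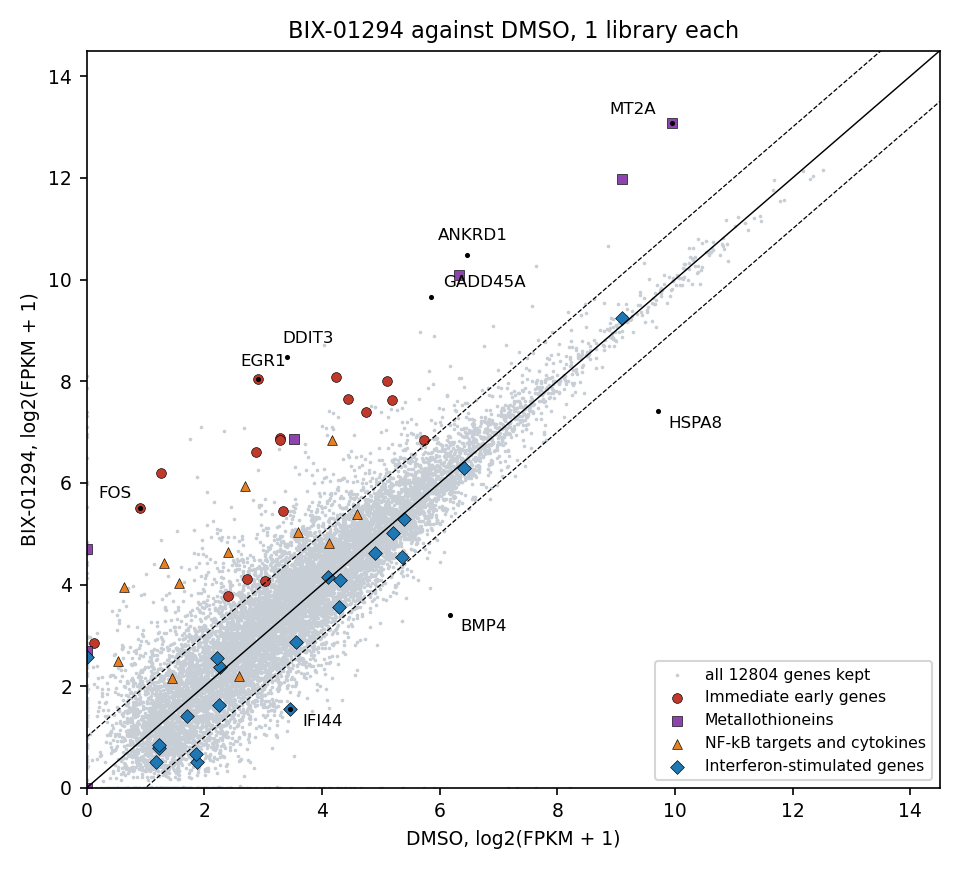
Level of each of the 12804 genes with BIX-01294 (y axis) against DMSO (x axis), both as log2(FPKM + 1), with the line of equality and the 2-fold lines (dashed). All 17 immediate early genes lie above the upper 2-fold line, 6 of 7 metallothionein-list genes do so too, and IFI44, BMP4 and HSPA8 lie below the lower one.

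A rough scale for single-library differences came from 2PCPA, GSK343 and Rapamycin, which had a second library, in a separate table. Of the genes at least 2-fold higher than DMSO in their first library, 13.9%, 6.81% and 14.9% were again at least 2-fold higher in the second, and 61.1% to 77.9% kept the sign. Of those at least 2-fold lower, 1.80% to 5.797% were again so, and 70.3% to 71.4% kept the sign. Among genes averaging 10 FPKM or more, small RNA and clone rows aside, 35.3%, 14.1% and 33.3% of the higher genes were again at least 2-fold higher, and 76.5% to 90.2% kept the sign. Of the lower genes in that set, 6 of 474, 0 of 26 and 1 of 80 again passed 2-fold. Of all genes at least 4-fold higher in the first library, 4 of 27, 12 of 55 and 8 of 31 again passed 2-fold. In the same order, 8, 31 and 19 of them were higher at all. In the set averaging 10 FPKM or more, 1 of 3, 5 of 8 and 3 of 3 again passed 2-fold. Most single 2-fold differences of the replicated compounds were thus not seen again at that size, in either set of genes. BIX-01294 has no second library, so the same count could not be made for it.

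The target genes themselves were described first. EHMT2 was listed at 0 in all 10 libraries of the table used here, yet at 24.8 to 33.8 FPKM in the 4 libraries of the second table, and 11 of the 15 neighbouring protein-coding genes with a row were likewise at 0 in all 10, so no value can be given for it. EHMT1 stood at 8.11 FPKM with BIX-01294, against 7.64 FPKM with DMSO, and the other 8 compounds ran from 5.51 to 12.2 FPKM with a median of 7.73 FPKM. WIZ stood at 12.2 FPKM with BIX-01294, against 11.1 FPKM with DMSO. ZNF644 was the highest of the 10 libraries, at 23.02 FPKM with BIX-01294, against 10.7 FPKM with DMSO, with 6.16 to 13.8 FPKM among the other compounds. Of 10 genes kept from the list of the EHMT complex and H3K9 methyltransferases, 1 was at least 2-fold higher and none lower. Over all genes 9.97% were at least 2-fold higher. The list median was 0.10, which became -0.06 after median centring. ATF7IP, a partner of the H3K9 methyltransferase SETDB1, had 10.9 FPKM with BIX-01294 against 6.33 with DMSO, the highest of the 10.

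Among the H3K9 demethylases 3 of 10 genes were at least 2-fold higher, beside 9.97% over all genes, and none lower. The median difference was 0.68 beside 0.06 over all genes. This was not particular to BIX-01294, since the list median ran from -0.21 with 2PCPA to 0.81 with GSK-J4 among the other compounds. Against the median of the other 8 compounds the list lay at 0.40. JMJD1C, a member of the KDM3 family, stood at 56.04 FPKM with BIX-01294, against 9.33 FPKM with DMSO, and the other 8 compounds ran from 7.09 to 17.8 FPKM with a median of 13.7 FPKM. The library with BIX-01294 was thus above all others for this gene. JHDM1D, the demethylase now called KDM7A, had 4.41 FPKM with BIX-01294 against 0.678 with DMSO, and KDM4C had 9.05 FPKM with BIX-01294 against 3.33 with DMSO. Both were the highest of the 10, but by a narrow margin, since the largest value among the other compounds was 4.02 FPKM for JHDM1D and 8.66 FPKM for KDM4C. KDM3A was not at its highest here, with 11.9 FPKM with BIX-01294 against 5.69 with DMSO and up to 26.7 FPKM in another library. KDM6B, an H3K27 demethylase, was 3.11 higher on the log2 scale, at 37.2 FPKM with BIX-01294, against 3.42 FPKM with DMSO, and the other compounds reached 12.1 FPKM. The H3K27 demethylase KDM6A at 7.53 FPKM with BIX-01294 against 2.58 with DMSO and the PRC2 cofactor AEBP2 at 23.2 FPKM with BIX-01294 against 8.32 with DMSO were at least 2-fold higher as well, and 6 of the 13 genes of the PRC2 and H3K27 demethylase list were the highest of the 10, beside 26.5% over all genes. The list of H3K9 readers and corepressors had 0 of 13 genes at least 2-fold higher and 1 lower, the DNA methyltransferase DNMT3B (singled out after its value was seen) at 1.34 FPKM with BIX-01294 against 4.88 with DMSO. The median of that list was 0.08, which became -0.08 after median centring.

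Immediate early genes, which growth factors and stress switch on within minutes through pre-existing transcription factors, formed the group with the most uniform difference. All 17 members kept were at least 2-fold higher with BIX-01294, 15 of them were the highest of the 10 libraries, and the median difference was 2.90. The background for the same 2 calls over all genes was 9.97% and 26.5%. The remaining 4 members of the list lay under the filter on low levels. The zinc finger factor EGR1 stood at 263 FPKM with BIX-01294, against 6.49 FPKM with DMSO. The other 8 compounds had 9.22 to 41.4 FPKM with a median of 16.5 FPKM, so the BIX-01294 library was several-fold above every other one. FOS, a subunit of the factor AP-1, had 44.1 FPKM with BIX-01294, against 0.882 FPKM with DMSO, and FOSL1, a second AP-1 subunit, had 269 FPKM with BIX-01294, against 17.9 FPKM with DMSO. Both were highest with BIX-01294, and the other compounds had at most 7.31 FPKM of FOS and 64.05 FPKM of FOSL1. The growth regulator MYC stood at 256 FPKM with BIX-01294, against 33.4 FPKM with DMSO, and the other compounds had 27.8 to 97.9 FPKM with a median of 43.6 FPKM. The exceptions to the top rank were JUN and KLF2, named here after their values were seen, for which BIX-01294 ranked 2 and 3 of the 10.

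Other genes among the largest differences are also known as quickly induced genes or as feedback inhibitors of kinase signalling. Of those below, DUSP2, SPRY2, GEM, MAFF and ARC were named only from genes already highest with BIX-01294. Their top rank is therefore no separate result. DUSP5, a nuclear phosphatase that inactivates ERK kinases, had 71.8 FPKM with BIX-01294, against 1.39 FPKM with DMSO, and the other 8 compounds ran from 0.168 to 15.5 FPKM with a median of 2.51 FPKM. DUSP2, a related phosphatase, stood at 115 FPKM with BIX-01294, against 2.40 FPKM with DMSO, with 1.31 to 8.86 FPKM among the other compounds. SPRY2, an inhibitor of receptor tyrosine kinase signalling, had 68.4 FPKM with BIX-01294, against 2.68 FPKM with DMSO and at most 7.55 FPKM elsewhere. GEM, a small GTP-binding protein, had the largest difference of the genes named by the rule, 5.15, at 136 FPKM with BIX-01294, against 2.84 FPKM with DMSO and 3.001 to 7.55 FPKM among the other compounds. MAFF, a small MAF transcription factor, stood at 128 FPKM with BIX-01294, against 4.01 FPKM with DMSO, and here other compounds were also well above DMSO, up to 49.4 FPKM. DUSP6, the ERK phosphatase of the immediate early list, lay under the filter on low levels, at 0.444 FPKM with BIX-01294 and 0.308 FPKM with DMSO, so not every such gene was high. ARC, an immediate early gene best known from neurons, had 135 FPKM with BIX-01294, against 5.38 FPKM with DMSO and at most 21.7 FPKM elsewhere.

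The EGR1 promoter is shown because EGR1 headed the immediate early list and its best-known regulator, serum response factor, binds the CArG box. The sequences here and below are RefSeq promoters on GRCh38.p14, 250 bases before to 50 bases after the annotated start and read 5′ to 3′ on the gene's strand. This is a later build than the hg19 of the deposited values. In the EGR1 promoter, chr5:138465229-138465528 on the plus strand, capitals mark the 2 CArG boxes; 1.29% of all 35116 promoters of the RefSeq table held at least 1 on either strand and 0.0313% held at least 2. A match is a description of the letters only.
EGR1: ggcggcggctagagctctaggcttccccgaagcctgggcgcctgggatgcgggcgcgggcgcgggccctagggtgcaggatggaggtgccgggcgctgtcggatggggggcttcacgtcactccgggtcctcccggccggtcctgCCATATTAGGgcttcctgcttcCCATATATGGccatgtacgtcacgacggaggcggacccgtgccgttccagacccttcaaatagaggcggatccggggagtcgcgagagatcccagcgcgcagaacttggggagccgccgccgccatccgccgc

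The second group was that of the integrated stress response, in which phosphorylation of the translation factor eIF2α raises translation of the factor ATF4, and ATF4 with its partner DDIT3 (CHOP) activates stress genes. Of 28 members kept, 13 were at least 2-fold higher, 3 were at least 2-fold lower and 11 were the highest of the 10 libraries, with a median of 0.77. The shares over all genes were 9.97%, 6.04% and 26.5%. DDIT3 itself stood at 354 FPKM with BIX-01294, against 9.56 FPKM with DMSO, and the other 8 compounds had 4.08 to 41.2 FPKM with a median of 11.9 FPKM. PPP1R15A (GADD34), the phosphatase subunit that reverses eIF2α phosphorylation, had 416 FPKM with BIX-01294, against 15.3 FPKM with DMSO, and the other compounds had 16.4 to 71.2 FPKM with a median of 31.3 FPKM. The BIX-01294 library was above all others for both. The factor ATF3, with 114 FPKM with BIX-01294, against 8.76 FPKM with DMSO, and the secreted stress hormone GDF15, with 28.3 FPKM with BIX-01294, against 1.40 FPKM with DMSO, were the highest of the 10 as well. For TRIB3, a DDIT3 target that inhibits AKT, BIX-01294 and GSK-J4 lay close to each other, at 46.3 and 43.02 FPKM, and DMSO had 6.59 FPKM. ATF4 mRNA stood at 653 FPKM with BIX-01294, against 288 FPKM with DMSO, with 209 to 602 FPKM among the other compounds.

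Other members of the list were not higher. CHAC1, a glutathione-degrading enzyme and commonly used ATF4 target, had 2.78 FPKM with BIX-01294, against 7.68 FPKM with DMSO, the second-lowest value of the 10, where the other compounds reached 41.4 FPKM. DDIT4, an inhibitor of mTOR signalling, and VLDLR, a lipoprotein receptor, both named after their values were seen, had 7.204 FPKM with BIX-01294 against 18.1 with DMSO and 2.65 FPKM with BIX-01294 against 6.61 with DMSO. Asparagine synthetase, ASNS, stood at 64.8 FPKM with BIX-01294, against 54.9 FPKM with DMSO, close to each other. In the list of serine, one-carbon and asparagine synthesis, which holds many ATF4 targets, 0 of 14 genes were at least 2-fold different and the median was -0.09 (-0.30 to -0.25 under other scalings). PHGDH, the first enzyme of serine synthesis, had 131 FPKM with BIX-01294 against 148 with DMSO. The aminoacyl tRNA synthetases had 0 of 17 genes past 2-fold and a median of 0.23, which became -0.04 after quantile normalization; YARS, the highest of the 10, had 115 FPKM with BIX-01294 against 58.6 with DMSO. Among the ER chaperones and unfolded protein response genes, 2 of 21 were at least 2-fold higher, beside 9.97% over all genes. They were the eIF2α kinase EIF2AK3 (PERK), at 15.2 FPKM with BIX-01294 against 5.03 with DMSO, and the co-chaperone DNAJB9. DNAJB9 had 11.6 FPKM with BIX-01294 against 4.04 with DMSO. In that list SDF2L1, an ER chaperone cofactor singled out after its value was seen, was at least 2-fold lower at 18.2 FPKM with BIX-01294 against 44.4 with DMSO, and the median was 0.10, or -0.07 after TPM scaling. The list median of the ATF4 and CHOP targets was 0.77 with BIX-01294 and 1.58 with GSK-J4 at 20 μM for 12 h, both set against the same DMSO library. For serine and asparagine synthesis it was -0.09 with BIX-01294 and 0.79 with GSK-J4.

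**Figure D3:**
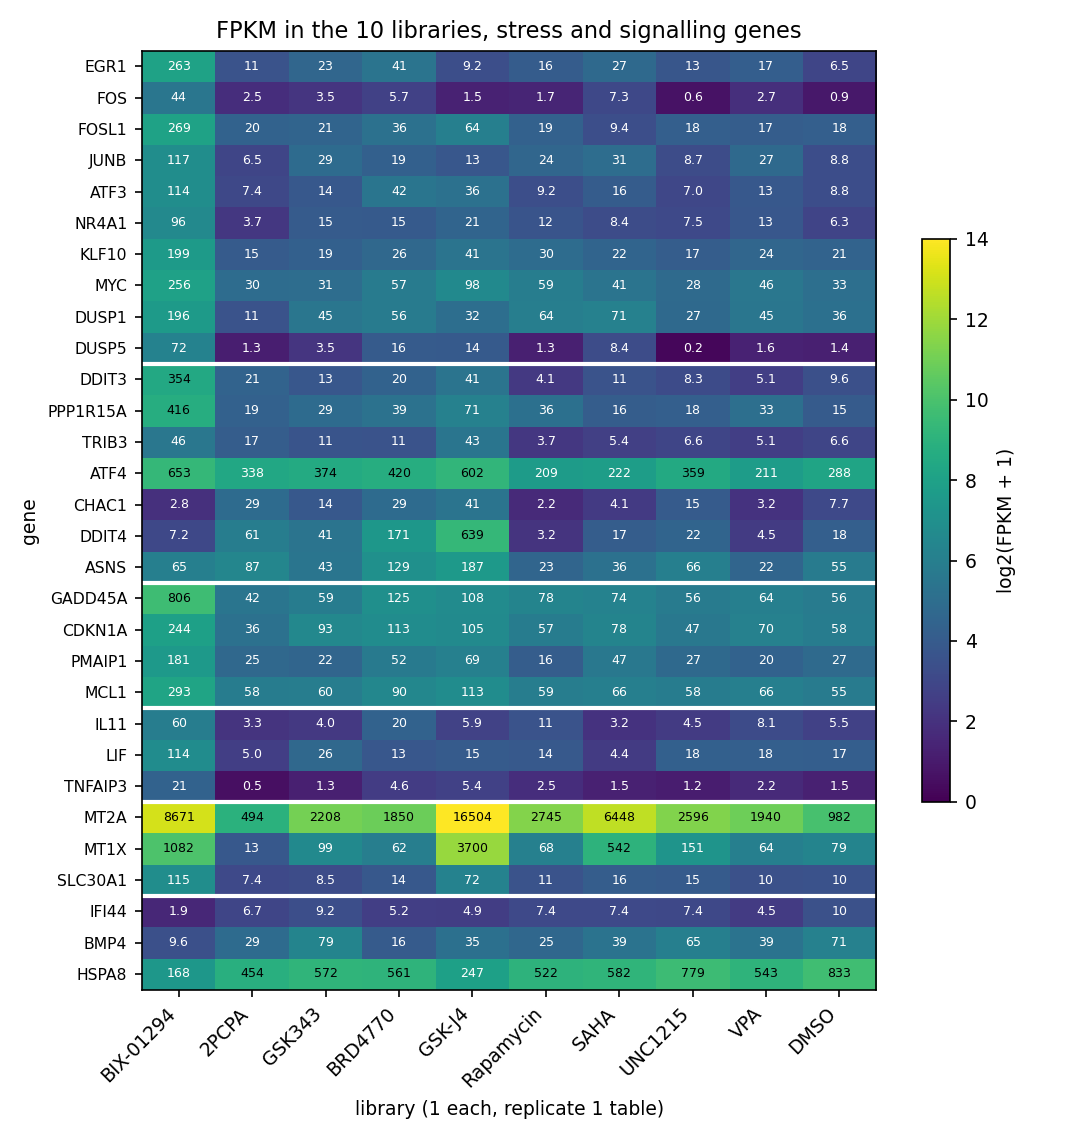
Levels of 30 genes (rows) in the 10 libraries (columns, BIX-01294 at the left and DMSO at the right); colour is log2(FPKM + 1) and the printed figures are FPKM. White lines separate immediate early, integrated stress, p53 and apoptosis, cytokine and NF-kB, metal-response and lower genes. EGR1 has 263 FPKM with BIX-01294 and 6.49 FPKM with DMSO, while MT2A and MT1X are highest with GSK-J4.

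The promoters of the 2 leading stress genes are shown because they were among the largest differences of the table. In PPP1R15A, chr19:48872171-48872470 on the plus strand, capitals mark a cyclic AMP response element, TGACGTCA, which reads the same on both strands and was held by 1.85% of all promoters. In DDIT3, chr12:57520465-57520764 on the minus strand, capitals mark an AP-1 motif, TGACTCA or TGAGTCA, which was held by 4.95% of all promoters.
PPP1R15A: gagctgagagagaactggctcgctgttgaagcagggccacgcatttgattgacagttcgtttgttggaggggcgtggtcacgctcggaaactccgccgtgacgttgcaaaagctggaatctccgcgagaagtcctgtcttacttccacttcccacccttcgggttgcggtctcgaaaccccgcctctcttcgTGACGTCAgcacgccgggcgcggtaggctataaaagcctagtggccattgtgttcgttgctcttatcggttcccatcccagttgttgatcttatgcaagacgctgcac
DDIT3: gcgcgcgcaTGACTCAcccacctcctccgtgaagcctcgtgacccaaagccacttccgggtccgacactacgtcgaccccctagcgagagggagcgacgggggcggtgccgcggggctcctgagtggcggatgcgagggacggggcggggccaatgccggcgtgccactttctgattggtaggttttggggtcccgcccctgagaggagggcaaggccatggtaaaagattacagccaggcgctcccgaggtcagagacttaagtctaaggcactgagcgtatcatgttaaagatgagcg

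Targets of the tumour suppressor p53, which is wild type in U2OS cells, were higher in part. Of 26 members kept, 8 were at least 2-fold higher and none was 2-fold lower, 11 were the highest of the 10 libraries, and the median was 0.67 (0.43 to 0.52 under other scalings). Beside these counts, 9.97% of all genes were at least 2-fold higher and 26.5% the highest. GADD45A, a DNA damage and stress protein that also answers to ATF4, stood at 806 FPKM with BIX-01294, against 56.4 FPKM with DMSO, and the other 8 compounds had 42.2 to 125 FPKM with a median of 69.2 FPKM. The cell cycle inhibitor CDKN1A (p21) had 244 FPKM with BIX-01294, against 57.9 FPKM with DMSO, with 35.9 to 113 FPKM among the other compounds. PMAIP1 (NOXA), a pro-apoptotic protein, had 181 FPKM with BIX-01294, against 27.4 FPKM with DMSO, and the death receptor TNFRSF10B had 90.1 FPKM with BIX-01294, against 20.9 FPKM with DMSO. These 4 genes were highest with BIX-01294. Other p53 targets, named after their values were seen, lay on the other side, with TP53I3 at 33.6 FPKM with BIX-01294 against 56.8 with DMSO, FDXR at 31.7 FPKM with BIX-01294 against 49.9 with DMSO and XPC at 12.5 FPKM with BIX-01294 against 19.8 with DMSO, none of them past 2-fold.

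Within the BCL2 family, which sets the threshold of mitochondrial apoptosis, 4 of 16 genes were at least 2-fold higher, beside 9.97% over all genes, and none was lower. MCL1, an anti-apoptotic member, stood at 293 FPKM with BIX-01294, against 55.5 FPKM with DMSO, and the other compounds had 57.6 to 113 FPKM with a median of 62.7 FPKM. The pro-apoptotic members HRK and BAK1 had 5.34 FPKM with BIX-01294 against 0.636 with DMSO and 51.5 FPKM with BIX-01294 against 21.2 with DMSO. The mRNAs of proteins of opposite effect were thus high in the same library. The family median was 0.17, and it became -0.00 after TPM scaling.

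NF-kB is a transcription factor of inflammation whose targets include its own inhibitors. Of the 21 genes on its list only 12 passed the filter, and of these 8 were at least 2-fold higher, none lower and 9 the highest of the 10, with a median of 2.09. The median rested on that filter, since without it the list lay at 0.78. Among all genes 9.97% were at least 2-fold higher and 26.5% the highest. The cytokine LIF stood at 114 FPKM with BIX-01294, against 17.002 FPKM with DMSO, and the related cytokine IL11 was 3.24 higher on the log2 scale than with DMSO, where it had 5.46 FPKM. The other compounds reached 20.5 FPKM for IL11 and 25.997 FPKM for LIF. IL8, a chemokine, had 14.54 FPKM with BIX-01294, against 0.545 FPKM with DMSO, and TNFAIP3 (A20), an NF-kB feedback inhibitor, had 20.5 FPKM with BIX-01294, against 1.48 FPKM with DMSO, both the highest of the 10.

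Metallothioneins, small proteins that bind zinc and copper and are switched on by the metal-sensing factor MTF1, had the largest list median, 3.14. Of the 7 genes kept, 6 were at least 2-fold higher, beside 9.97% over all genes. They were not highest with BIX-01294, however: 1 of 7 had its top value there. MT2A stood at 8671 FPKM with BIX-01294, against 982 FPKM with DMSO, and the other 8 compounds had 494 to 16504 FPKM with a median of 2402 FPKM. MT1X had 1082 FPKM with BIX-01294, against 78.9 FPKM with DMSO. For MT2A and MT1X the GSK-J4 library was above BIX-01294, at 16504 and 3699.7 FPKM, and SAHA had 6448 and 542 FPKM. MT1G was listed at 25.1 FPKM with BIX-01294 and at 0 with DMSO, so no fold is given; MT1B, a further member counted as higher, was also at 0 with DMSO. SLC30A1, the zinc exporter of the plasma membrane and an MTF1 target, was the exception, at 115 FPKM with BIX-01294, against 10.5 FPKM with DMSO and at most 72.4 FPKM elsewhere. HMOX1, the haem oxygenase that oxidants and metals also raise, stood at 138 FPKM with BIX-01294, against 15.005 FPKM with DMSO, the second highest after 914 FPKM with GSK-J4. Metallothionein genes are near-identical in sequence, so the split of fragments among them is uncertain. In the NRF2 target list HMOX1 was the 1 of 18 genes at least 2-fold higher, none was lower and the median was -0.08 (-0.26 to -0.25 under other scalings); the NRF2 target NQO1 had 51.9 FPKM with BIX-01294 against 73.8 with DMSO.

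The promoters of MT2A and MT1X are shown because metal response elements are the binding sites of MTF1. In MT2A, chr16:56608334-56608633, and MT1X, chr16:56682220-56682519, both on the plus strand, capitals mark the core letters TGCACNC or TGCGCNC on either strand, with 8 matches in MT2A and 4 in MT1X. At least 1 match was found in 29.6% of all promoters, at least 4 in 0.601% and at least 8 in 0.0199%.
MT2A: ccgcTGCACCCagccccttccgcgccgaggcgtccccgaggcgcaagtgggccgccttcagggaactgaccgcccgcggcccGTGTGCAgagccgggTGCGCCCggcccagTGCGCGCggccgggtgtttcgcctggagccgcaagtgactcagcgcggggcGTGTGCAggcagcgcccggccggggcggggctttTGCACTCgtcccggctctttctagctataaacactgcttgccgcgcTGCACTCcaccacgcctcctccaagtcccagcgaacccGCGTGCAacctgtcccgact
MT1X: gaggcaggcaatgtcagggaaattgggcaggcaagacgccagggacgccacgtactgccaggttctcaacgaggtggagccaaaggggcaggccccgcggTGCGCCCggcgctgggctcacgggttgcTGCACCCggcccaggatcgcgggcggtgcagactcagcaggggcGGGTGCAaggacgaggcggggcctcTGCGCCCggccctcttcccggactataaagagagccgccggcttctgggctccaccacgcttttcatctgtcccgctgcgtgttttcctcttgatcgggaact

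Genes secreted or switched on downstream of YAP and TGF-beta, which respond to cell contact, tension and wounding, had 7 of 17 members at least 2-fold higher, none lower and 9 highest of the 10, with a median of 0.64. For all genes the shares were 9.97% higher and 26.5% highest. ANKRD1, a YAP target, stood at 1431 FPKM with BIX-01294, against 86.9 FPKM with DMSO, and the other compounds had 67.2 to 278 FPKM with a median of 101 FPKM. INHBA, a subunit of activin, had 89.4 FPKM with BIX-01294, against 12.5 FPKM with DMSO. TGFBI, an extracellular matrix protein, had 39.3 FPKM with BIX-01294 against 14.2 with DMSO, but higher values occurred elsewhere, up to 95.2 FPKM. Collagen and matrix genes as a list did not share this, with 1 of 27 at least 2-fold higher (the protease MMP3, at 75.5 FPKM with BIX-01294 against 12.2 with DMSO), none lower and a median of -0.14 (-0.36 to -0.30 under other scalings); COL1A1 stood at 80.02 FPKM with BIX-01294 against 142 with DMSO. Actin and contractile genes had 1 of 17 higher, calponin CNN1 at 54.1 FPKM with BIX-01294 against 16.6 with DMSO, and none lower, at a median of -0.00 that became -0.31 to -0.16 under other scalings. Both MMP3 and CNN1 were singled out after their values were seen.

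Autophagy genes showed large differences in a few members and small ones in most. In the list of LC3 and GABARAP conjugation, 3 of 17 genes were at least 2-fold higher and none was lower, 5 were the highest of the 10 and the median was 0.22 (0.04 to 0.05 under other scalings). The 5 highest were 29.4% of the list, near the 26.5% over all genes, and 9.97% of all genes were at least 2-fold higher. MAP1LC3B, which encodes the autophagosome marker LC3B, stood at 178 FPKM with BIX-01294, against 40.02 FPKM with DMSO, and the other 8 compounds had 36.2 to 170.3 FPKM with a median of 49.4 FPKM, with GSK-J4 at the top of that range and close to BIX-01294. GABARAPL1, of the same protein family, had 87.8 FPKM with BIX-01294, against 25.7 FPKM with DMSO, second to GSK-J4 at 175 FPKM. ATG12, which is joined to ATG5 to form the conjugation enzyme, stood at 32.8 FPKM with BIX-01294, against 10.2 FPKM with DMSO, with 9.39 to 15.4 FPKM among the other compounds. ATG16L1, the third part of that enzyme, had 11.1 FPKM with BIX-01294 against 5.34 with DMSO and ATG5 had 19.9 FPKM with BIX-01294 against 14.97 with DMSO, both the highest of the 10 but under 2-fold. The close relatives GABARAP and GABARAPL2, named after their values were seen, had 142 FPKM with BIX-01294 against 123 with DMSO and 84.4 FPKM with BIX-01294 against 72.5 with DMSO.

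Upstream of conjugation, 1 of 20 initiation genes was at least 2-fold higher, beside 9.97% over all genes, and none was lower. The median was 0.16 (0.00 to 0.08 under other scalings). C12orf44 (ATG101), a subunit of the ULK1 complex, had 84.7 FPKM with BIX-01294, against 35.6 FPKM with DMSO, the highest of the 10. RB1CC1 (FIP200), the scaffold of that complex, had 28.2 FPKM with BIX-01294 against 18.2 with DMSO. The kinase gene ULK1 itself stood at 5.48 FPKM with BIX-01294, against 4.82 FPKM with DMSO, while the other compounds had 5.62 to 14.1 FPKM with a median of 12.2 FPKM. BECN1, a subunit of the lipid kinase that marks the forming membrane, had 13.6 FPKM with BIX-01294, against 20.6 FPKM with DMSO, the second-lowest value of the 10. WIPI1, which reads that lipid and whose mRNA is often used as an autophagy marker, had 3.55 FPKM with BIX-01294, against 4.10 FPKM with DMSO; every other compound was higher, at 7.39 to 13.03 FPKM. TP53INP2, an LC3-binding autophagy regulator, was likewise lowest here, at 4.35 FPKM with BIX-01294, against 6.05 FPKM with DMSO.

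The cargo receptors had a median of 0.18 that became -0.06 after quantile normalization. Of 15 kept, 1 was at least 2-fold higher and 1 at least 2-fold lower, beside 9.97% and 6.04% over all genes. The lower one was the glycogen receptor STBD1, singled out after its value was seen, at 1.33 FPKM with BIX-01294 against 4.41 with DMSO. SQSTM1 (p62) stood at 121 FPKM with BIX-01294, against 50.2 FPKM with DMSO, and the other compounds had 47.1 to 165 FPKM with a median of 78.7 FPKM, so GSK343 and GSK-J4 were above BIX-01294. NCOA4, the receptor for ferritin, had 83.7 FPKM with BIX-01294 against 55.1 with DMSO, and TOLLIP, a receptor for aggregates, had 12.4 FPKM with BIX-01294 against 5.87 with DMSO, both the highest of the 10. Lysosome genes had 1 of 35 members at least 2-fold higher, the cholesterol transporter NPC1 at 11.9 FPKM with BIX-01294, against 4.20 FPKM with DMSO, and none lower. The lysosome median was 0.08, or -0.08 after TPM scaling, and TFE3, a factor that drives lysosome genes, had 96.2 FPKM with BIX-01294 against 52.6 with DMSO, the highest of the 10. TXNIP, a glucose-sensing arrestin, had 2.24 FPKM with BIX-01294, against 0.788 FPKM with DMSO, and the other compounds ran up to 44.4 FPKM. In the list of arrestins and the glucose-sensing factor MLXIP, of which 6 genes were kept, 2 were at least 2-fold higher and none lower, ARRDC2 at 10.6 FPKM with BIX-01294 against 2.67 with DMSO and ARRDC4 at 2.24 FPKM with BIX-01294 against 0.155 with DMSO. This was not particular to BIX-01294. The list median was 0.74 with BIX-01294 and ran from -0.04 with UNC1215 to 0.99 with GSK-J4 among the other compounds. Against the median of the other 8 compounds it was 0.0050, with 1 gene highest and 2 lowest of the 10.

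**Figure D4:**
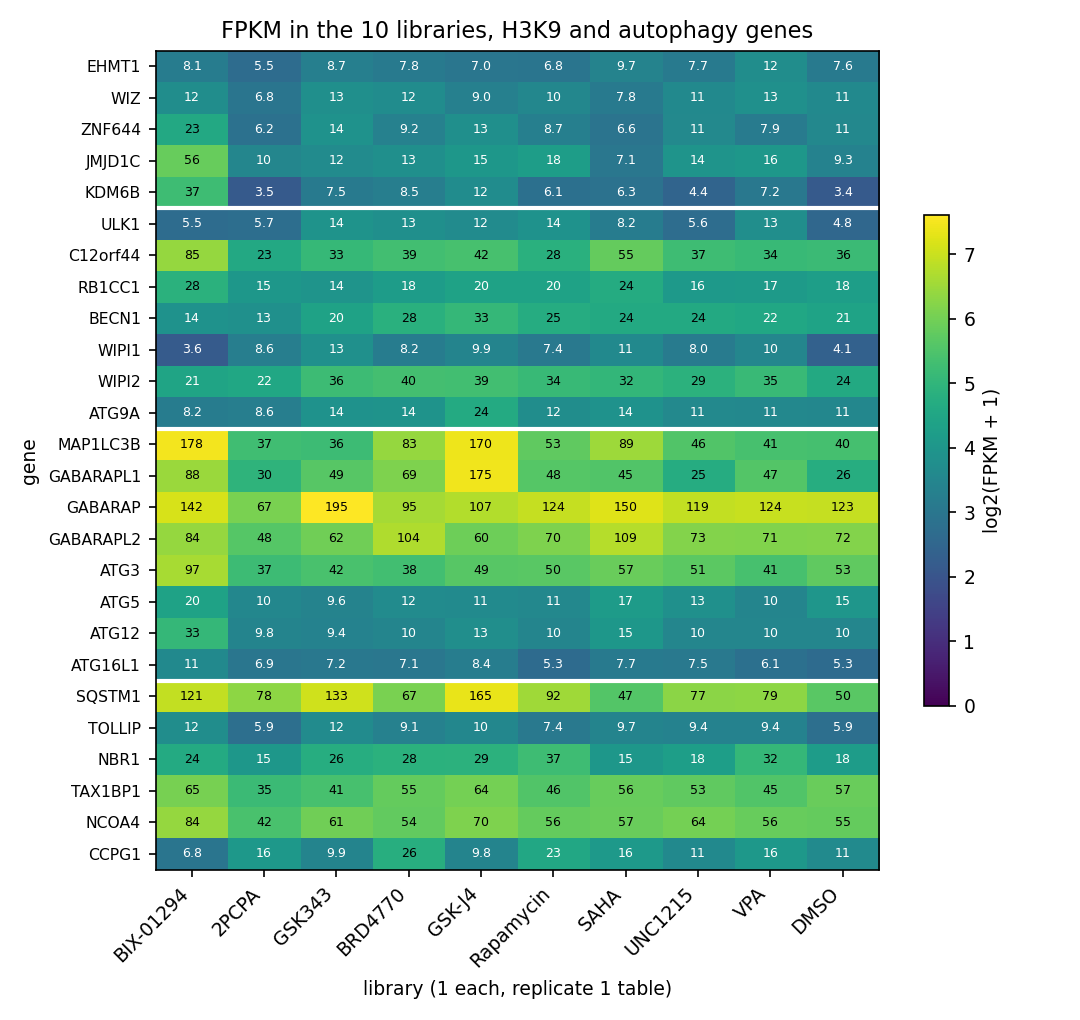
Levels of 26 genes of H3K9 and H3K27 regulation, autophagy initiation, conjugation and cargo receptors (rows, blocks separated by white lines) in the 10 libraries (columns); colour is log2(FPKM + 1) and the printed figures are FPKM. MAP1LC3B, ATG12 and JMJD1C are highest in the BIX-01294 column, whereas WIPI1 is lowest there.

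In lipid synthesis, HMGCS1, the enzyme that makes the precursor of mevalonate, stood apart at 204 FPKM with BIX-01294, against 35.8 FPKM with DMSO, with 11.5 to 109 FPKM among the other compounds. It was the 1 gene of 9 in the mevalonate list to pass 2-fold. Beside this list and the squalene list below, 9.97% of all genes were at least 2-fold higher. INSIG1, a sterol sensor, had 20.3 FPKM with BIX-01294 against 8.48 with DMSO, and it was not at its highest with BIX-01294, since another library had 36.3 FPKM. Of 12 genes from squalene to cholesterol, 2 were at least 2-fold higher and none lower, at a median of 0.26 that became -0.00 after quantile normalization; they were MSMO1 at 107 FPKM with BIX-01294 against 50.7 with DMSO and TM7SF2 at 2.02 FPKM with BIX-01294 against 0.437 with DMSO. Against the median of the other 8 compounds TM7SF2 lay at -0.35. Fatty acid synthesis genes had 0 of 12 past 2-fold in either direction and a median of -0.20 (-0.47 to -0.36 under other scalings).

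Glycolysis genes were nearly level, with 2 of 21 at least 2-fold higher, none lower and a median of 0.08, which became -0.09 after TPM scaling. The glucose transporter SLC2A3 was one of them, at 57.04 FPKM with BIX-01294, against 5.29 FPKM with DMSO, and hexokinase HK2 the other, at 11.5 FPKM with BIX-01294 against 4.65 with DMSO. Targets of the hypoxia factor HIF beyond glycolysis had a median of 0.13 that became -0.03 after median centring. Of the 28 kept, 5 were at least 2-fold higher and 1 lower. Beside this list and the glycolysis list, 9.97% of all genes were at least 2-fold higher and 6.04% lower. The lower gene was the oxygen sensor EGLN3, singled out after its value was seen, at 0.384 FPKM with BIX-01294 against 2.35 with DMSO. BHLHE40, a clock and stress repressor, had 169.8 FPKM with BIX-01294, against 16.5 FPKM with DMSO, the highest of the 10, and VEGFA, the vessel growth factor, had 38.3 FPKM with BIX-01294 against 13.99 with DMSO and up to 113 FPKM elsewhere.

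Ribosome biogenesis genes had small differences but a high rank. Of 26 members 3 were at least 2-fold higher and none lower, yet 20 were the highest of the 10 libraries, against 26.5% over all genes, and the median was 0.37 (0.20 to 0.22 under other scalings). NOP14 and RRP12, both factors of small-subunit assembly, had 57.95 FPKM with BIX-01294 against 18.1 with DMSO and 32.6 FPKM with BIX-01294 against 10.3 with DMSO. NOLC1, a nucleolar chaperone, had 65.6 FPKM with BIX-01294 against 31.3 with DMSO. The 74 cytosolic ribosomal protein genes had 0 past 2-fold, 0 highest and a median of -0.02 (-0.20 to -0.14 under other scalings). Proteasome genes had 0 of 31 past 2-fold but 13 highest, at a median of 0.11 that became -0.10 after quantile normalization, and the 40 respiratory chain genes had 0 past 2-fold at a median of -0.01 (-0.26 to -0.17 under other scalings).

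**Figure D5:**
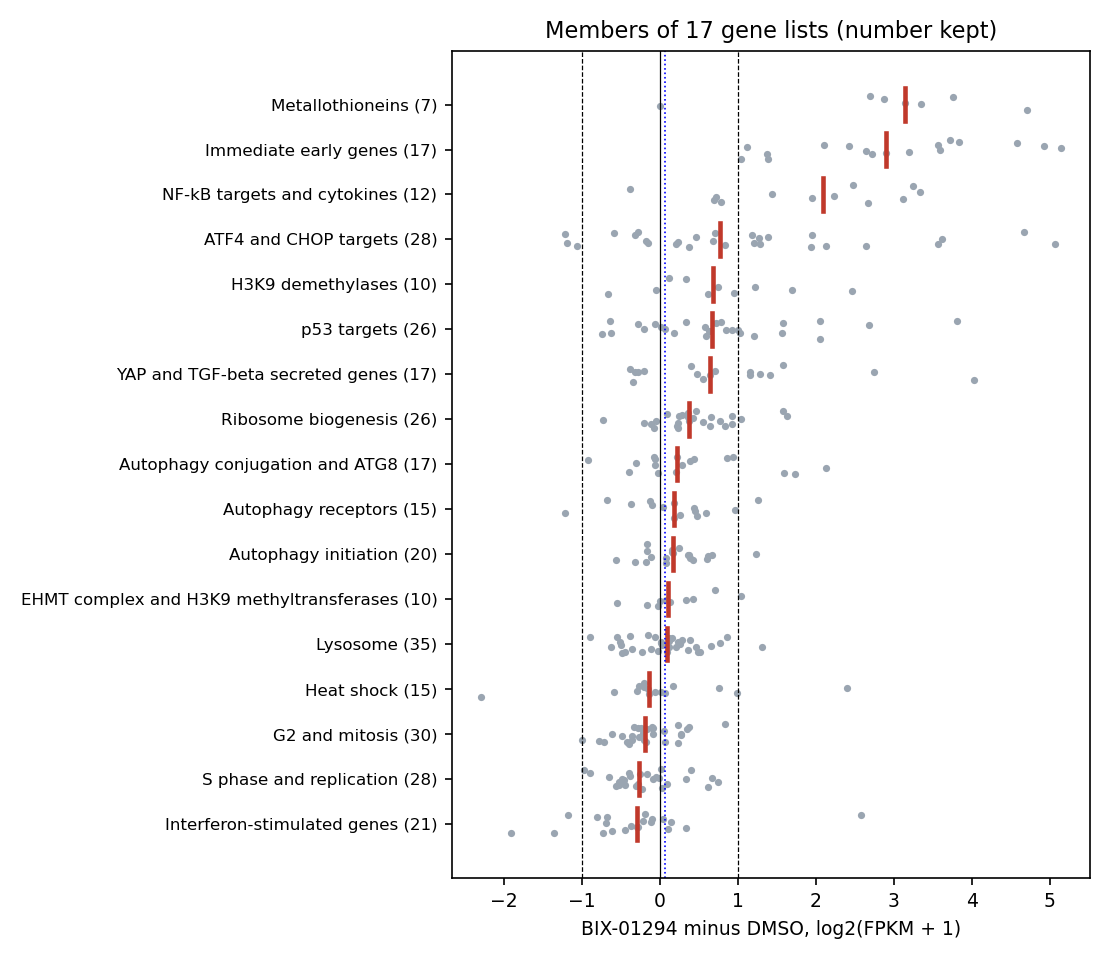
Difference between BIX-01294 and DMSO on the log2(FPKM + 1) scale (x axis) for each kept member (grey points, spread vertically for sight only) of 17 gene lists (rows, number kept in brackets), with list medians (red bars), the 2-fold thresholds (dashed) and the all-gene median of 0.06 (dotted). The metallothionein, immediate early and NF-kB medians lie at 3.14, 2.90 and 2.09, and the autophagy and lysosome medians lie between 0.08 and 0.22, with the receptor and lysosome medians below 0 under at least 1 other scaling.

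The interferon-stimulated genes, a list of antiviral effectors, had a median below 0: 3 of 21 members kept were at least 2-fold lower, 1 was higher (IFI27, listed at 0 with DMSO) and 7 were the lowest of the 10, with a median of -0.29 (-0.50 to -0.42 under other scalings). Among all genes 6.04% were at least 2-fold lower and 13.2% the lowest. IFI44 stood at 1.91 FPKM with BIX-01294, against 9.96 FPKM with DMSO, and every other compound was higher, at 4.49 to 9.16 FPKM. IFIT1 had 0.426 FPKM with BIX-01294 against 2.65 with DMSO and HERC6 0.591 FPKM with BIX-01294 against 2.61 with DMSO. These levels are low, and IFIT1 was lower still in another library, at 0.0985 FPKM. Heat shock genes had 1 of 15 at least 2-fold higher and 1 lower, at a median of -0.14 (-0.34 to -0.30 under other scalings). In this list 5 genes were the highest of the 10, beside 26.5% over all genes, and 1 was the lowest. Against the median of the other 8 compounds the heat shock list lay at 0.36. The lower gene was HSPA8, the constitutive cytosolic chaperone, at 168 FPKM with BIX-01294, against 833 FPKM with DMSO, with 247 to 779 FPKM with a median of 552 FPKM among the other compounds. HSPA8 was among the few abundant genes on the lower side, since only 6 of 633 genes with a mean of 100 FPKM or more were at least 2-fold lower. HSPB8, a small heat shock protein of the autophagy chaperone complex and the gene on the higher side, was named after its value was seen, at 168 FPKM with BIX-01294, against 31.1 FPKM with DMSO.

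Cell cycle genes also had medians below 0 against DMSO, with few members past 2-fold. Replication genes had 0 of 28 past 2-fold, 8 of 28 above DMSO at any size and a median of -0.27 (-0.51 to -0.43 under other scalings). In this list 5 genes were the highest of the 10 libraries and 1 was the lowest. Against the median of the other 8 compounds the list lay at -0.09. The genes of G2 and mitosis had 0 of 30 at least 2-fold higher and 1 lower, KIF20A at 19.3 FPKM with BIX-01294 against 39.9 with DMSO. Of these, 9 of 30 were above DMSO at any size, and the median was -0.19 (-0.44 to -0.36 under other scalings). In the same list 7 genes were the highest of the 10 and 0 the lowest, beside 26.5% and 13.2% over all genes. Against the median of the other 8 compounds the list lay at 0.16. Its median against DMSO ran from -1.05 with GSK-J4 to 0.05 with UNC1215 among the other compounds. The replication-dependent histone genes were mixed, with 4 of 24 at least 2-fold higher and 5 lower, beside 9.97% and 6.04% over all genes. HIST1H3F was listed at 16.6 FPKM with BIX-01294 and at 0 with DMSO, and HIST1H4A at 0 with BIX-01294 and 3.92 FPKM with DMSO, so neither gets a fold. HIST1H3F also passed the filter on low levels only through its BIX-01294 value. The mRNAs of replication-dependent histones lack poly(A) tails and their sequences are near-identical, so these values are uncertain.

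Genes outside the lists gave the largest lower values among rows with a gene symbol that were lowest of the 10 with BIX-01294. BMP4, a secreted morphogen, stood at 9.60 FPKM with BIX-01294, against 71.1 FPKM with DMSO, and the other 8 compounds had 15.5 to 78.7 FPKM with a median of 37.02 FPKM. CBX2, a Polycomb subunit that binds methylated H3K27, had 3.65 FPKM with BIX-01294, against 22.5 FPKM with DMSO, while every other library held at least 13.5 FPKM. TPGS1, a subunit of a tubulin-modifying enzyme, had 0.535 FPKM with BIX-01294, against 10.4 FPKM with DMSO, and CNPY4 had 2.31 FPKM with BIX-01294, against 19.4 FPKM with DMSO. NEURL1B, a ubiquitin ligase of Notch signalling, had 1.96 FPKM with BIX-01294, against 16.3 FPKM with DMSO, and DGCR2 had 2.32 FPKM with BIX-01294, against 15.995 FPKM with DMSO. The ephrin ligand EFNA4 had 1.85 FPKM with BIX-01294, against 13.2 FPKM with DMSO. These 7 genes were named only from genes for which the BIX-01294 library was the lowest of the 10, so that rank is no separate result. The remaining 7 of the 14 largest, TOPORS-AS1, GPRASP2, TMEFF1, BPGM, PAQR7, SYCE1L and C19orf81, had at most 0.307 FPKM with BIX-01294 and 4.15 to 6.20 FPKM with DMSO. TOPORS-AS1 is an antisense row, and with no word on strand in the sources it cannot be told apart from its partner. On the higher side ODZ2, an older symbol of the teneurin gene TENM2, was listed at 20.7 FPKM with BIX-01294 and at 0 in the other 9 libraries. ODZ2 passed the filter on low levels only through its BIX-01294 value, so it could appear only as higher there.

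The lists bearing on gene silencing were read last, since H3K9 methylation is known for silencing germline and neuronal genes. Cancer-testis and germline genes had 0 of 12 kept genes past 2-fold in either direction; MAGEA1 had 136 FPKM with BIX-01294, against 95.1 FPKM with DMSO, and the list median of 0.25 became -0.03 after quantile normalization. A further 24 genes of that list stayed under the filter. In the list of neuronal genes repressed by REST, which also holds the repressor REST and its corepressor RCOR1, 5 of 13 were at least 2-fold higher, none lower and 4 highest of the 10, at a median of 0.59. The shares over all genes were 9.97% higher and 26.5% highest. VGF, a neuropeptide precursor, stood at 135 FPKM with BIX-01294, against 16.96 FPKM with DMSO, with 17.3 to 66.7 FPKM with a median of 30.9 FPKM among the other compounds, and the growth factor BDNF had 18.8 FPKM with BIX-01294, against 4.91 FPKM with DMSO. REST itself and RCOR1, the second named after its value was seen, were 2 of the 5, at 32.2 FPKM with BIX-01294 against 10.96 with DMSO for REST and 18.4 FPKM with BIX-01294 against 6.79 with DMSO for RCOR1. The median rested on the filter on low levels, since without it the list lay at 0.00. With SAHA the list median was 0.89. The synaptic vesicle protein SYP had 5.75 FPKM with BIX-01294 against 0.513 with DMSO, but SAHA had 26.7 FPKM. Imprinted genes had 1 of 12 at least 2-fold higher, GRB10 at 30.04 FPKM with BIX-01294 against 13.96 with DMSO, and none lower.

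BRD4770 is also directed at the EHMT enzymes but was given at 20 μM for 24 h, so its values are set beside those of BIX-01294 without a comparison. EGR1 stood at 263 FPKM with BIX-01294, 41.4 FPKM with BRD4770 and 6.49 FPKM with DMSO. DDIT3 had 354 FPKM with BIX-01294, 20.3 FPKM with BRD4770 and 9.56 FPKM with DMSO. MAP1LC3B stood at 178 FPKM with BIX-01294, 83.2 FPKM with BRD4770 and 40.02 FPKM with DMSO. Of these, EGR1 was above DMSO in each of the 9 compound libraries. WIPI1 had 3.55 FPKM with BIX-01294, 8.20 FPKM with BRD4770 and 4.10 FPKM with DMSO. JMJD1C stood at 56.04 FPKM with BIX-01294, 12.98 FPKM with BRD4770 and 9.33 FPKM with DMSO. BMP4 had 9.60 FPKM with BIX-01294, 15.5 FPKM with BRD4770 and 71.1 FPKM with DMSO. The list medians against the shared DMSO library were 2.90 with BIX-01294 and 0.98 with BRD4770 for the immediate early genes. They were 0.13 with BIX-01294 and 2.01 with BRD4770 for the HIF targets beyond glycolysis. Other lists lay nearer each other, with the p53 targets at 0.67 with BIX-01294 and 0.62 with BRD4770. In the same order the ATF4 and CHOP targets lay at 0.77 and 0.65 and the H3K9 demethylases at 0.68 and 0.42. The list of LC3 and GABARAP conjugation lay at 0.22 with BIX-01294 and 0.25 with BRD4770.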

How the data were processed

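Total RNA from U2OS cells was taken through mRNA isolation and a Rubicon ThruPLEX library kit, per the labels' protocols. FastQC, cutadapt, TopHat2 and the hg19 build are named per the submitters' processing notes. For the program that computed the values, its annotation and any use of strand, nothing is given in the sources used here. The authors deposited FPKM values per gene in 2 tables, each with its own DMSO library; no test or level was set across them. There were 0 columns outside the labelled samples, and 1 row with no gene name was left out.

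From these values log2(FPKM + 1) differences were computed with python 3.11.15, numpy 2.4.6 and pandas 2.3.3, and drawn with matplotlib 3.10.9, for the rows whose average over the 10 libraries reached 1 FPKM. The steps were tested on simulated data. Read depth is unknown, and no counting interval can be given. Relative depth was read from the most frequent ratio to DMSO among values below 1 FPKM. With 1 library per group no test was possible. The genes named were the 14 largest higher and 14 largest lower named genes, up to 4 per list by size of the difference, and a set always reported. The 14 higher were taken only from genes highest of the 10 libraries with BIX-01294, and the 14 lower only from genes lowest there. Rows with clone-style names were passed over after their values were seen, 1 on the higher and 2 on the lower side. Genes said to be named after their values were seen, further genes in the heat maps and the families in the closing section lie outside this rule, and some genes the rule names are not reported here. The members and lists were chosen with earlier results of these data known. Alternatives were other pseudocounts, filters, scalings, thresholds and comparators. Promoters came from RefSeq on GRCh38.p14.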

Additional observations from a re-analysis of the deposited data

How the results depend on the processing

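No paired analysis was possible because BIX-01294 has 1 library only, with replicate number 1. Median centring gave -0.10 as the all-gene median. Counts are given as higher, lower, higher and highest of 10, and lower and lowest of 10. As reported they were 1276, 773, 1011 and 557. A 1.5-fold threshold gave 2800, 1983, 2033 and 1166, and a 3-fold threshold gave 445, 200, 366 and 135, since the threshold itself sets the count. A pseudocount of 5 gave 637, 134, 558 and 82. A pseudocount of 0.1 gave 1325 lower genes and 880 lower and lowest. A mean of at least 5 FPKM gave 373 and 284, fewer genes being tested. TPM scaling gave 1404 and 1028, and median centring gave 966 lower and lowest. For these scalings and pseudocounts the cause was not tested.

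Each of the 40 lists was counted once under each alternative setting. By this count 141 list medians moved by more than the SD between replicates of 3 replicated compounds and 219 did not. Median centring shifts every list by the same amount, so there the call rests on the SD alone. The SD was taken relative to the all-gene median and the shifts were not, so these calls do not place a list against all genes. For the 9 lists with the medians farthest from 0, those that moved were as follows. H3K9 demethylases lay at 0.74 (pseudocount 0.1), 0.51 (pseudocount 5), 0.61 (no filter), 0.47 (mean of 5), 0.52 (centring), 0.48 (quantile), 0.55 (TPM) and 0.40 (against the median of the other 8 compounds in place of DMSO). In the same order immediate early genes lay at 3.25, 2.76, 2.64, 3.20, 2.74, 2.73, 3.06 and 2.45. NF-kB targets lay at 2.59, 1.37, 0.78, 2.23, 1.93, 1.98, 2.25 and 1.61. Neuronal genes repressed by REST lay at 1.14, 0.19, 0.00, 0.26, 0.43, 0.81, 0.70 and 0.17. Metallothioneins lay at 3.45 (pseudocount 0.1), 2.87 (pseudocount 5), 2.79 (no filter), 2.88 (quantile) and 2.70 (other 8). The p53 targets lay at 0.57 (pseudocount 5), 0.51 (centring), 0.43 (quantile) and 0.52 (TPM). YAP and TGF-beta genes lay at 0.48 (centring), 0.44 (quantile), 0.47 (TPM) and 0.80 (other 8). ATF4 and CHOP targets lay at 0.52 (quantile) and 0.51 (other 8). Glucose-sensing arrestins lay at 0.0050 (other 8). TM7SF2 was the 1 named gene past 2-fold that turned, to -0.35 against the other 8. Of 95 such genes 94 kept their sign throughout.

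Chosen after seeing the data were leaving out the 2PCPA library, which stands apart with 28.5% of olfactory receptor genes above 0 (1014 higher and highest, 593 lower and lowest), and leaving out rows at 0 in either library (1221 higher, 632 lower). With 1 library per group, replicate error could not be estimated for BIX-01294. Its depth was the lowest of the table by a rough estimate, and the part of depth in the values at low FPKM was not tested.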

Other observations

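The gene families in this part were chosen after their values were seen, so their counts are descriptions of these 2 libraries. Over all genes 9.97% were at least 2-fold higher, 6.04% at least 2-fold lower, 26.5% the highest of the 10 and 13.2% the lowest. Transcripts that host small nucleolar RNAs had 5 of 14 members at least 2-fold higher with BIX-01294 than with DMSO and 9 highest of the 10 libraries, led by SNHG17 at 101 FPKM with BIX-01294, against 8.61 FPKM with DMSO, with 5.10 to 9.51 FPKM among the other compounds. SNHG12 went the other way, at 13.2 FPKM with BIX-01294 against 27.4 with DMSO, and was the lowest of the 10. Krüppel-like factors had 6 of 11 at least 2-fold higher and none lower, with KLF5 at 82.4 FPKM with BIX-01294, against 13.4 FPKM with DMSO. All 3 PIM kinases, which are growth-promoting serine kinases, were at least 2-fold higher, with PIM1 at 96.5 FPKM with BIX-01294, against 12.1 FPKM with DMSO and PIM3 at 155 FPKM with BIX-01294, against 33.9 FPKM with DMSO. All 7 ATF factors kept were the highest of the 10 and 3 were at least 2-fold higher, among them ATF1 at 65.2 FPKM with BIX-01294, against 18.3 FPKM with DMSO. Of 37 DDX helicases 4 were at least 2-fold higher, near the share over all genes, and 1 was lower, while 21 were the highest of the 10. DDX21 had 149.8 FPKM with BIX-01294, against 56.5 FPKM with DMSO, whereas DDX3X was the lowest of the 10. DDX3X had 14.3 FPKM with BIX-01294, against 56.2 FPKM with DMSO.

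Deubiquitinases of the USP family had 9 of 44 members at least 2-fold higher and 18 highest of the 10, beside 9.97% and 26.5% over all genes, with USP36 at 48.2 FPKM with BIX-01294, against 13.3 FPKM with DMSO and USP53 at 19.9 FPKM with BIX-01294, against 4.80 FPKM with DMSO. Ubiquitin ligases of the TRIM family had 11 of 39 at least 2-fold lower and 1 higher, 18 lowest of the 10, beside 6.04% lower and 13.2% lowest over all genes, and a median of -0.44. TRIM16L stood at 5.99 FPKM with BIX-01294, against 29.8 FPKM with DMSO and TRIM16, a near copy, at 14.4 FPKM with BIX-01294, against 36.9 FPKM with DMSO. HOX genes had 5 of 24 at least 2-fold lower, 1 higher and 8 lowest of the 10, with HOXB6 at 1.13 FPKM with BIX-01294 against 4.60 with DMSO and HOXC4 on the higher side at 8.94 FPKM with BIX-01294 against 3.55 with DMSO. Many HOX rows lay at a few FPKM, where the shares over all genes are larger. At a mean of 2 to 5 FPKM, 10.4% of genes were at least 2-fold lower and 20.0% the lowest. At 5 to 10 FPKM these shares were 7.15% and 15.1%. Rows named as antisense had 20 of 121 at least 2-fold lower and 11 higher, and 11 of the 121 were listed at 0 with BIX-01294 against 3 with DMSO. Over all genes 6.04% were lower and 9.97% higher, and 323 of 12804 were at 0 with BIX-01294 against 190 with DMSO.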
